A study of Mus musculus with 16 samples.

Results

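The genes described here are the Cas scaffold genes and the kinases and adaptors that act with them, 9 genes in all: *Nedd9*, *Bcar1*, *Efs*, *Ptk2*, *Ptk2b*, *Src*, *Crk*, *Crkl* and *Dock1*. They were found by symbol in a table of 14474 genes, which held 8 of the 9. *Efs*, the remaining Cas scaffold gene among the 9, is not listed in the table and was not analysed here. *Cass4*, a further Cas family gene, was looked for among the other pathway genes and is not listed in the table either. RNA was sequenced from MKα3− cells, an immortalized mouse keratinocyte line without integrin α3, and from MKα3+ cells, the same line reconstituted with human α3. Both lines grew on collagen-coated dishes in low-calcium medium and received either LN332, the recombinant full-length form of the basement membrane protein laminin-332, at 0.02 mg/mL or an equal volume of vehicle (PBS with glycine and sodium azide) for 16 to 24 h. Each of the 4 groups held 4 libraries, 16 in all. *Nedd9* was chosen on its measured values in these libraries, in the comparison of the lines and in the LN332 response, so its levels are given as a description without a test, and it is left out of the counts of members. The other 7 genes were tested in a fit across all genes.

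Integrin α3β1 is a laminin receptor of basal keratinocytes. When integrins bind matrix, focal adhesion kinase (FAK) recruits Src to the adhesion, and the pair phosphorylates the long substrate domain of Cas scaffold proteins. Phosphorylated Cas is bound by Crk adaptors, which bring DOCK exchange factors to the membrane, where these load Rac with GTP and promote lamellipodia and cell migration. The readout here is mRNA, so it carries no information on phosphorylation.

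Total counts per library were between 21735708 and 29338370. All 8 basal keratinocyte markers looked for were in the table and summed to between 8099 and 18197 CPM, reads per library scaled to a common total, in every library, against at most 40.7 CPM for fibroblast, 6.45 for endothelial, 60.0 for immune and 3.94 for melanocyte markers. The basal markers were not alike in level or between the lines. In MKα3− and MKα3+ vehicle libraries the means were 6.10 and 0.79 CPM for *Krt15*, 123 and 76.6 for *Trp63*, and 1278 and 729 for *Col17a1*. *Krt5*, *Itga6* and *Itgb4* were also lower in MKα3+ vehicle libraries, and *Krt14* (4231 and 5802 CPM) and *Cdh3* (242 and 276 CPM) were higher. Mouse *Itga3* lay between 211 and 317 CPM in MKα3− libraries and between 211 and 314 CPM in MKα3+ libraries. Reads of mouse *Itga3* were thus present in the line labelled as lacking α3 integrin, at the level of the other line. The part of the gene that was deleted is not given in the sources used here, and the human transgene is not part of the mouse annotation, so these counts could check neither the deletion nor the reconstitution. In bulk RNA, fewer cells with a transcript and less of it per cell cannot be told apart. With MKα3− cells and a reconstituted line derived from them as the only lines, the effect of α3 and any other difference between the lines cannot be told apart either.

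CPM levels above and below carry TMM scaling (trimmed mean of M-values, which corrects for a few abundant genes taking reads from the rest). A gene is called changed when its adjusted p from limma-voom (Benjamini-Hochberg over all 14474 genes) is under 0.05 and its log2 fold change is over 0.5 in size. By this rule 2676 genes, 18.5% of all, differed between MKα3+ and MKα3− cells in vehicle, and 2987 genes, 20.6%, in LN332. The LN332 response was smaller. It comprised 27 genes (0.187%) in MKα3+ cells, of which 25 were higher with LN332, and 44 genes (0.304%) in MKα3− cells, of which 35 were higher. These splits moved with the scaling: by library size alone, 2 of 3 called genes were higher in MKα3+ cells and 24 of 74 in MKα3− cells. The replicate block brought the count in MKα3+ cells to 218 genes. Both counts also rested on single libraries. That in MKα3+ cells was 0 without replicate 2 or 4 of MKα3+ vehicle or replicate 3 or 4 of MKα3+ LN332, and up to 47 without replicate 1 of MKα3− LN332. That in MKα3− cells was 1 without replicate 3 of MKα3− vehicle, 3 without replicate 2 or 4 of MKα3− LN332, and 150 without replicate 1 of MKα3− LN332. The comparison of the lines in vehicle and the LN332 comparison within either line share the vehicle libraries of that line. Below, groups overlap or not by the ranges of their libraries, and the share of all genes without overlap was not computed. Between the lines, 39.0% of all genes in vehicle and 42.5% in LN332 had an unadjusted limma-voom p under 0.05.

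Of the 7 tested members, 1 was called between the lines in vehicle and 1 in LN332, 14.3% of the members in each case and no higher a share than that of all genes. The called gene was *Dock1* both times, lower in MKα3+ cells. With LN332, 0 of the 7 were called in either line by limma-voom, edgeR or DESeq2, although 2, *Ptk2b* and *Src*, had an unadjusted limma-voom p under 0.05 in MKα3+ cells and 0 in MKα3− cells, beside 9.59% and 14.0% of all genes. The difference of the 2 LN332 responses was called for 0 of the 7 by any of the 3 tools, with 0 at an unadjusted p under 0.05, and for 0% of all genes. The median log2 fold change of the 7 was 0.04 between the lines in vehicle, 0.08 between the lines in LN332, 0.05 for LN332 in MKα3+ cells and 0.06 in MKα3− cells, beside a median over all genes of 0.0056, 0.0062, -0.0067 and -0.0056.

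**Figure D1:**
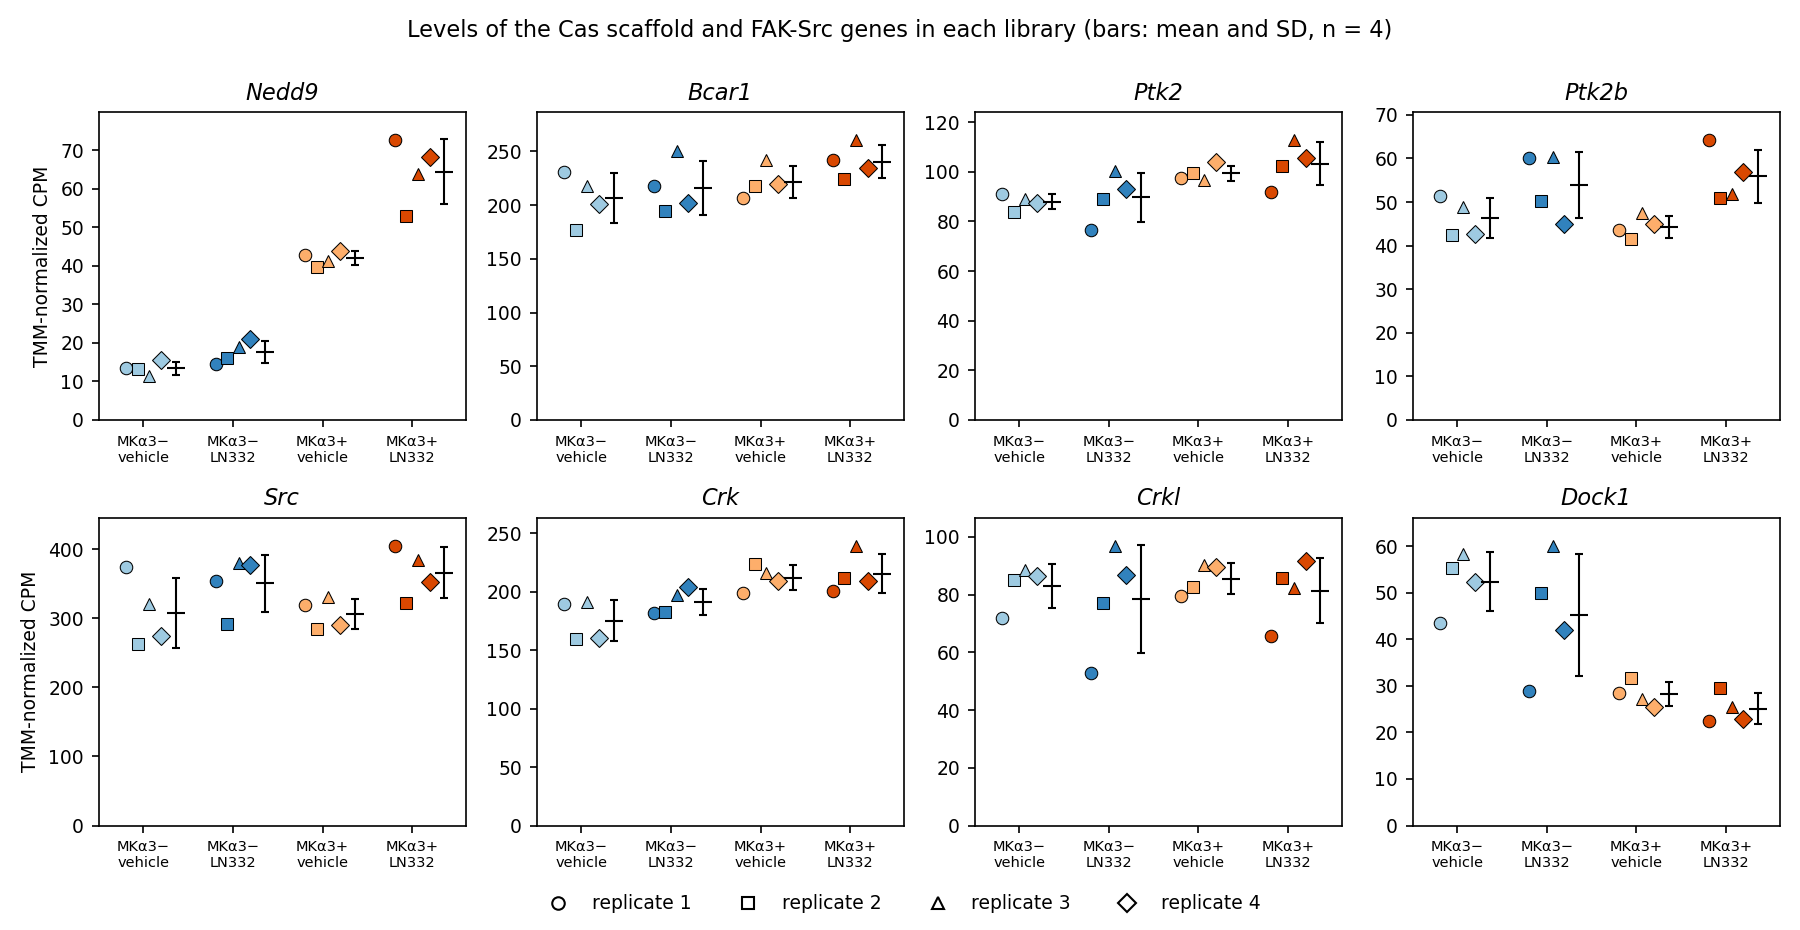
TMM-normalized CPM of the 8 genes in each of the 16 libraries, with group and line on the x axis, marker shape for the replicate number, and the mean and SD of 4 libraries beside the points. *Nedd9* is higher in each MKα3+ library (39.8 CPM or more) than in any MKα3− library (21.0 CPM or less), and *Dock1* is lower in MKα3+ than in MKα3− vehicle libraries. The other 6 genes were called in no comparison. Among them, *Ptk2* and *Crk* do not overlap between the lines in vehicle, and *Ptk2b* does not overlap between the treatments in MKα3+ cells. The share of all genes without overlap was not computed.

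*Nedd9* (chromosome 13, 41309581 to 41487362, minus strand, GRCm38.p6, the assembly of mm10) encodes the scaffold also called HEF1 or Cas-L, which carries integrin, Src and TGF-β signals and has roles at the centrosome. In MKα3− cells it was measured at 13.4, 13.2, 11.4 and 15.5 CPM in the vehicle libraries of replicates 1 to 4, and at 14.5, 16.2, 18.8 and 21.0 CPM in the LN332 libraries. In MKα3+ cells the values were 42.7, 39.8, 41.3 and 44.0 CPM in vehicle and 72.7, 52.9, 63.9 and 68.2 CPM in LN332. Thus the ranges of the lines were apart in either treatment, the ranges of vehicle and LN332 were apart in MKα3+ cells, and in MKα3− cells the LN332 range overlapped that of vehicle. The fitted *Nedd9* level was 3.15-fold higher in MKα3+ than in MKα3− cells in vehicle and 3.69-fold higher in LN332. With LN332 it was 1.53-fold higher in MKα3+ cells and 1.30-fold higher in MKα3− cells. These are the values on which the gene was chosen. In each of the 4 same-numbered pairs of either line, *Nedd9* was higher with LN332, by a log2 ratio of 0.41 to 0.77 in MKα3+ cells and 0.11 to 0.72 in MKα3− cells. The counts behind these values were between 322 and 1820 per library, and 62 exonic bases overlap *Gm32401* on the opposite strand, so that reads there could come from either gene.

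*Bcar1* (chromosome 8, 111710474 to 111743809, minus strand) encodes p130Cas, the scaffold on which the Cas family was defined. Its levels were 231, 177, 217 and 201 CPM in MKα3− vehicle libraries and 218, 194, 250 and 202 CPM in MKα3− LN332 libraries. MKα3+ cells had 207, 218, 242 and 219 CPM in vehicle and 242, 224, 261 and 234 CPM in LN332. All 4 groups overlapped. By limma-voom the *Bcar1* log2 fold change between the lines was 0.11 in vehicle (SE 0.10, adjusted p = 0.459, 95% interval -0.10 to 0.32) and 0.16 in LN332 (SE 0.10, adjusted p = 0.237).

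Compared per kb of merged exons, *Bcar1* was the more abundant Cas transcript in every library. *Nedd9* took 4.46 ± 0.79% of the summed *Nedd9* and *Bcar1* level per kb in MKα3− vehicle libraries and 5.54 ± 1.01% in MKα3− LN332 libraries (SD, n = 4). In MKα3+ cells its share was 11.9 ± 0.91% in vehicle and 16.0 ± 1.61% in LN332 (SD, n = 4). The lowest MKα3+ library stood at 10.9% and the highest MKα3− library at 6.90%. Since the share follows from the *Nedd9* values that chose the gene, it too is a description.

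Among the kinases, neither FAK family gene nor *Src* was called in any comparison. *Ptk2* (chromosome 15, 73205102 to 73423280, minus strand) encodes FAK. It stood at 91.0, 83.8, 89.2 and 87.5 CPM in MKα3− vehicle libraries and at 97.4, 99.5, 96.5 and 104 CPM in MKα3+ vehicle libraries, ranges that did not overlap. The LN332 libraries had 76.4, 89.0, 100 and 93.1 CPM in MKα3− cells and 91.9, 102, 113 and 106 CPM in MKα3+ cells, and these overlapped. The *Ptk2* difference between the lines was small, a log2 fold change of 0.18 in vehicle (SE 0.09, limma-voom adjusted p = 0.142, 95% interval -0.0063 to 0.36) and 0.21 in LN332 (SE 0.09, adjusted p = 0.0803).

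*Ptk2b* (chromosome 14, 66153257 to 66281052, minus strand) encodes PYK2, the calcium-sensitive relative of FAK. In vehicle it was at 51.5, 42.5, 48.8 and 42.6 CPM in MKα3− libraries and at 43.6, 41.5, 47.5 and 44.9 CPM in MKα3+ libraries. In LN332 the levels were 60.1, 50.2, 60.4 and 45.0 CPM in MKα3− cells and 64.2, 50.8, 51.9 and 56.8 CPM in MKα3+ cells. Every MKα3+ LN332 library lay above every MKα3+ vehicle library, whereas the MKα3− treatments overlapped. The *Ptk2b* log2 fold change with LN332 was 0.33 in MKα3+ cells (SE 0.11, limma-voom adjusted p = 0.261, 95% interval 0.10 to 0.56) and 0.22 in MKα3− cells (SE 0.11, adjusted p = 0.385). It was positive in 4 of 4 same-numbered pairs of either line. In MKα3+ cells *Bcar1* and *Src* were also higher in 4 of 4 pairs and *Dock1* in 0, and the share over all genes was not computed. With the replicate block the *Ptk2b* limma-voom adjusted p in MKα3+ cells was 0.0446, still under the minimum fold change of the call. The block also brought the count over all genes there from 27 to 218. The difference of the 2 *Ptk2b* responses was 0.11 (95% interval -0.21 to 0.44, limma-voom adjusted p = 0.9999).

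*Src* (chromosome 2, 157418444 to 157471862, plus strand) encodes the kinase that acts with FAK on Cas. Vehicle libraries had 374, 263, 321 and 274 CPM in MKα3− cells and 318, 285, 331 and 290 CPM in MKα3+ cells. With LN332 the values were 353, 291, 380 and 377 CPM in MKα3− cells and 405, 322, 384 and 352 CPM in MKα3+ cells. Vehicle and LN332 libraries overlapped in either line. The *Src* log2 fold change with LN332 was 0.25 in MKα3+ cells (SE 0.12, limma-voom adjusted p = 0.513, 95% interval 0.0025 to 0.51) and 0.19 in MKα3− cells (SE 0.12, adjusted p = 0.493). Between the lines in vehicle the *Src* difference was 0.0029, with a 95% interval of -0.25 to 0.25, and it changed sign with the scaling.

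Of the adaptor genes, neither *Crk* nor *Crkl* was called in any comparison. *Crk* (chromosome 11, 75679259 to 75706908, plus strand) encodes the SH2 and SH3 adaptor that binds phosphorylated Cas. It was at 189, 160, 191 and 160 CPM in MKα3− vehicle libraries and at 199, 224, 216 and 209 CPM in MKα3+ vehicle libraries, which did not overlap. Its log2 fold change between the lines was 0.28 in vehicle (SE 0.09, limma-voom adjusted p = 0.0237, 95% interval 0.10 to 0.46), past the adjusted p but under the minimum fold change. In LN332, *Crk* lay at 182, 183, 197 and 204 CPM in MKα3− libraries and at 201, 211, 239 and 209 CPM in MKα3+ libraries, with overlap and a log2 fold change of 0.17 (SE 0.09, limma-voom adjusted p = 0.161).

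*Crkl* (chromosome 16, 17451987 to 17487434, plus strand), whose product is the close relative of Crk, had 71.9, 85.1, 88.6 and 86.5 CPM in MKα3− vehicle libraries and 79.5, 82.5, 90.4 and 89.7 CPM in MKα3+ vehicle libraries. In LN332 it had 53.0, 77.2, 96.9 and 86.7 CPM in MKα3− and 65.6, 85.9, 82.3 and 91.6 CPM in MKα3+ libraries. Replicate 1 was the lowest in each of the 4 groups. The *Crkl* log2 fold change was between -0.11 and 0.08 in the comparisons of lines and treatments, and the largest of these had a limma-voom adjusted p of 0.808 (95% interval -0.43 to 0.20, LN332 in MKα3− cells).

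*Dock1* (chromosome 7, 134670654 to 135173639, plus strand) encodes DOCK180, the Rac exchange factor recruited through Crk. It was at 43.5, 55.2, 58.3 and 52.4 CPM in MKα3− vehicle libraries and at 28.4, 31.7, 27.2 and 25.5 CPM in MKα3+ vehicle libraries, with no overlap. In LN332 the MKα3− libraries had 28.9, 49.9, 60.1 and 41.9 CPM and the MKα3+ libraries 22.5, 29.6, 25.5 and 22.8 CPM. Replicate 1 of the MKα3− LN332 group reached into the MKα3+ range, so these groups overlapped. *Dock1* was 1.85-fold lower in MKα3+ cells in vehicle (log2 fold change -0.89, SE 0.17, 95% interval -1.25 to -0.53, limma-voom adjusted p = 8.3e-04) and 1.76-fold lower in LN332 (log2 fold change -0.81, SE 0.18, adjusted p = 0.00199). Without that overlapping library the log2 fold change in LN332 was -1.01. Over the 16 libraries left out in turn, *Dock1* was called in each of the fits in either treatment. With LN332, *Dock1* did not pass in MKα3+ cells (-0.17, 95% interval -0.56 to 0.21) or in MKα3− cells (-0.25, 95% interval -0.60 to 0.10), with limma-voom adjusted p of 0.887 and 0.537.

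**Figure D2:**
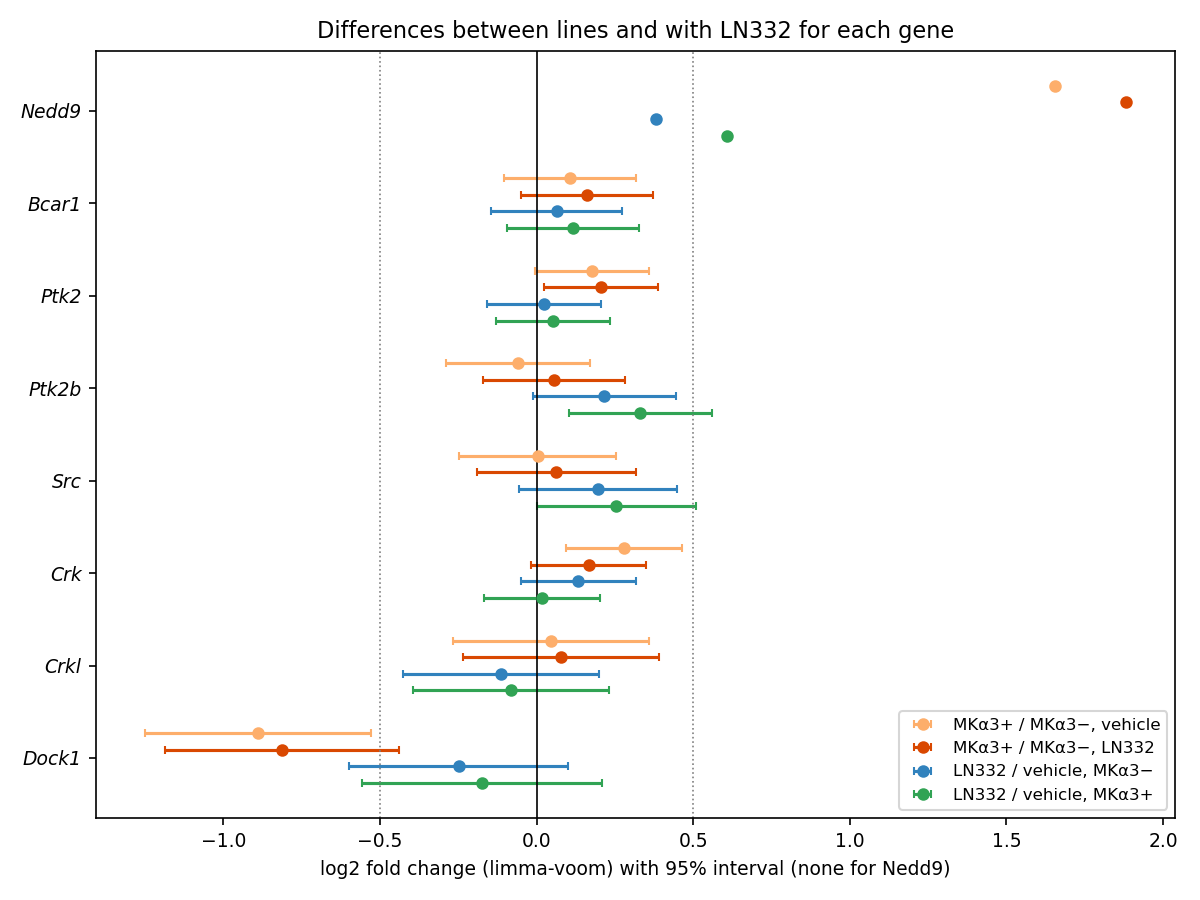
Log2 fold change of each gene (x axis) in the 2 comparisons of the lines and the 2 comparisons of LN332 with vehicle, with limma-voom 95% intervals except for *Nedd9*, which was chosen on these values; dotted lines mark the minimum of 0.5. Only *Dock1*, at -0.89 and -0.81, is past the minimum among the tested genes.

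The 2 tested members with an adjusted p under 0.05 between the lines in vehicle were *Dock1* and *Crk*, and the promoter sequence of each is shown for that reason. RefSeq windows on GRCm38.p6 were searched over the 250 bases upstream of the start on both strands for 4 motifs. The letters searched were GGGCGG for the GC box and CCAAT for the CCAAT box. For TEAD factors they were GGAATG. For AP-1 factors they were TGANTCA. The bases before the annotated exons are printed 5′ to 3′, with matches in capitals, for *Dock1* at chr7:134670437-134670653 and for *Crk* at chr11:75679009-75679193, both on the plus strand.
*Dock1*: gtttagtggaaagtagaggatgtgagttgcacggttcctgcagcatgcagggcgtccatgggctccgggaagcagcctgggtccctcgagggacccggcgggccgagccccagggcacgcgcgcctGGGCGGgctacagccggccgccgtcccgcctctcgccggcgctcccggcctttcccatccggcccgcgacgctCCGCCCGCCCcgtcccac
*Crk*: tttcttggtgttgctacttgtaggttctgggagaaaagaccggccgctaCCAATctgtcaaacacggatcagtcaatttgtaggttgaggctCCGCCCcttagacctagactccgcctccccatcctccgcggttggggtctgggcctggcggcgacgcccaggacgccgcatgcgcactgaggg
Positions are counted back from the end of each window. The *Dock1* window held GC boxes at -124 and, on the minus strand and overlapping each other, at -51 and -47. The *Crk* window held a CCAAT box at -201 and a minus strand GC box at -158 within the printed bases, and a further CCAAT box at -40 beyond them. The *Crk* window ends past the RefSeq start of the gene at 75679194, so the box at -40 lies within the annotated gene. A GC box was found in 32.7% and a CCAAT box in 33.8% of the 32851 windows of the table. The letters of the TEAD and AP-1 motifs, which occur in 12.6% and 6.7% of windows, were in no window of a member. The whole *Dock1* window was 71.6% and that of *Crk* 62.4% G or C, beside a median of 52.4%. Windows were found for 7 of the 9 members. In that of *Nedd9* an annotated exon begins after the first 4 bases, so it is not printed.

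Compared by level per kb of merged exons, the order of the genes was the same at its top in all groups. *Src* led with a mean of 70.4 CPM per kb in MKα3− vehicle libraries and 83.7 in MKα3+ LN332 libraries. *Bcar1* and *Crk* followed, at 45.4 and 37.0 in MKα3− vehicle libraries, and their ranges overlapped (38.9 to 50.7 and 33.7 to 40.5). *Crkl* at 16.5 was clear of *Ptk2* at 7.44. The order at the lower end differed between the lines. In MKα3− vehicle libraries *Ptk2b* (6.26) and *Dock1* (5.61) overlapped and *Nedd9* was last at 2.10 CPM per kb, whereas in MKα3+ vehicle libraries *Nedd9* at 6.58 overlapped *Ptk2b* at 5.99 and *Dock1* was last at 3.03. In MKα3+ LN332 libraries *Nedd9* reached 10.1 CPM per kb and overlapped *Ptk2* at 8.74. The merged exons of *Ptk2* are long, and by its longest transcript *Ptk2* (18.8 CPM per kb in MKα3− vehicle libraries) stood above *Crkl* (16.5). The place of *Nedd9* also rested on the length used. By the longest transcripts its mean was below that of *Ptk2* in MKα3+ LN332 libraries (13.2 against 22.0 CPM per kb). In MKα3+ vehicle libraries it was then below *Ptk2b* (8.61 against 11.0).

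**Figure D3:**
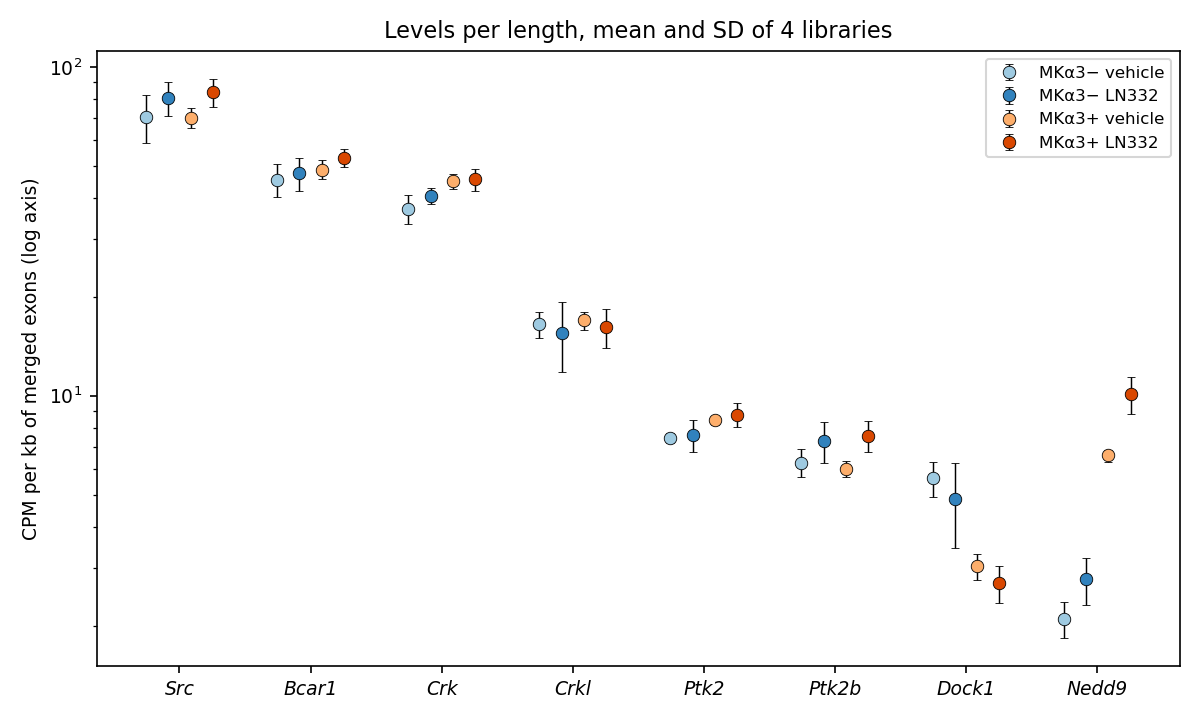
Level of each gene in CPM per kb of merged exons (log axis) in the 4 groups, as the mean and SD of 4 libraries. *Src*, *Bcar1* and *Crk* stand above 30 CPM per kb in all groups, and *Nedd9* and *Dock1* change places between MKα3− and MKα3+ cells.

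The genes also differed in what their variation over the 16 libraries followed. Of the sum of squares of log2 CPM, the line took 89.6% for *Nedd9*, 73.3% for *Dock1*, 53.8% for *Crk* and 49.7% for *Ptk2*. The *Nedd9* share follows from the values that chose the gene. For *Ptk2b* the line took 0.00063% and LN332 50.1%, and for *Src* 0.83% and 35.6%. *Ptk2b* and *Src* varied little in all, with an SD of log2 CPM over the 16 libraries of 0.20 and 0.19, beside 0.96 for *Nedd9*. *Crk* and *Ptk2*, with large line shares, varied still less (0.16 and 0.14). Neither *Ptk2b* nor *Src* was called for LN332 in either line. Shares of the line and of LN332 over all genes were not computed. The replicate number took 66.4% for *Crkl*, 45.4% for *Src* and 44.6% for *Bcar1*, beside a median of 21.3% over 14363 genes. *Src* was lowest in replicate 2 of all 4 groups, by a mean of -0.19 on the log2 scale from its group means, and *Crkl* in replicate 1, by -0.28. The labels do not say what the replicate numbers share.

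**Figure D4:**
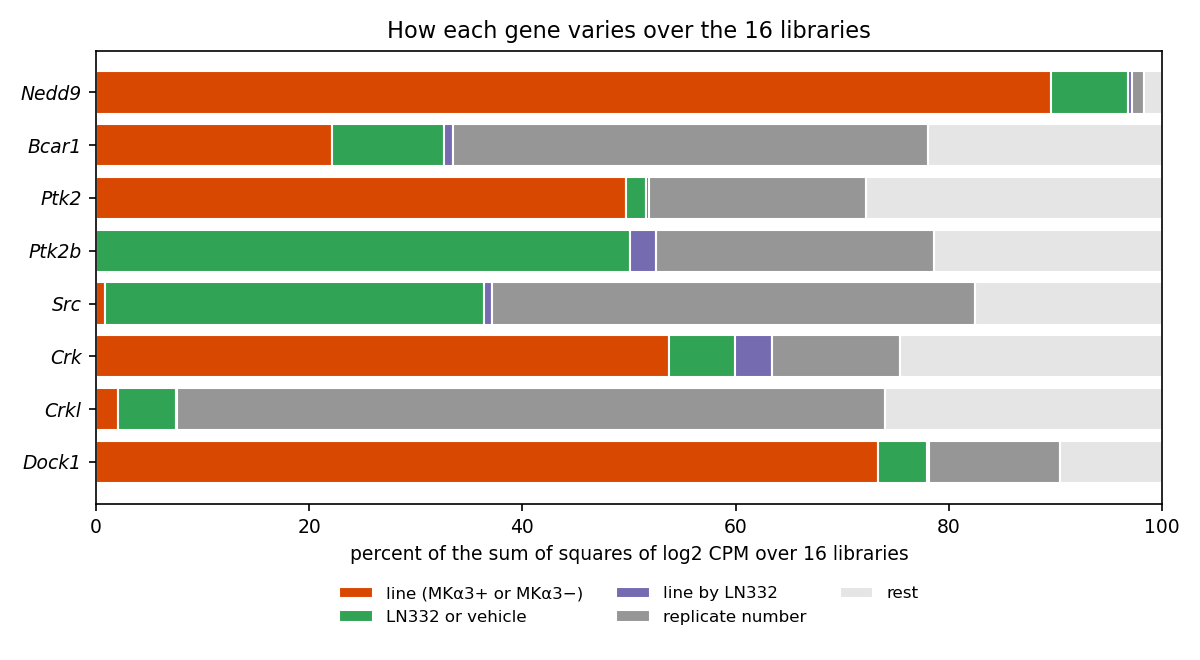
Share of the sum of squares of log2 CPM over 16 libraries (x axis, percent) that goes with the line, LN332, their combination, the replicate number and the rest, for each of the 8 genes. *Nedd9*, which was chosen on these values, and *Dock1* vary mostly with the line, and *Crkl* mostly with the replicate number. For *Ptk2b*, which varies little and was not called, LN332 takes 50.1%.

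Within the Src family, *Src* was the main transcript per kb. It took 74.7 ± 2.74% of the summed level of *Src*, *Yes1*, *Fyn* and *Lyn* in MKα3− vehicle libraries and 73.3 ± 2.09% in MKα3+ vehicle libraries (SD, n = 4). *Lyn*, of which 248 exonic bases overlap *Gm26857* on the opposite strand, was second at 16.3 ± 0.92% and 15.6 ± 1.53% (SD, n = 4). *Fyn*, a kinase with a role in keratinocyte differentiation, stood at 12.8 ± 3.44 CPM in MKα3− and 21.7 ± 2.23 CPM in MKα3+ vehicle libraries (SD, n = 4), a log2 difference of 0.78 (SE 0.16, limma-voom adjusted p = 0.00161).

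The composition of *Dock1*, *Dock3*, *Dock4* and *Dock5*, the DOCK genes looked for here, differed between the lines, and the shares were not tested. *Dock1* took 41.0 ± 3.74% of the summed level per kb of *Dock1*, *Dock3*, *Dock4* and *Dock5* in MKα3− vehicle libraries and 21.8 ± 2.17% in MKα3+ vehicle libraries (SD, n = 4). *Dock5*, its close relative, took 55.9 ± 3.53% and 72.6 ± 2.47% (SD, n = 4). The *Dock5* log2 fold change between the lines in vehicle, 0.41 (SE 0.10, limma-voom adjusted p = 0.0041), was under the minimum for a call. *Dock4* was 1.89-fold higher in MKα3+ cells in vehicle, at 17.5 ± 1.38 against 9.21 ± 0.36 CPM (SD, n = 4, limma-voom adjusted p = 1.96e-05), and 2.36-fold higher in LN332 (adjusted p = 8.69e-07).

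Beyond the members, 55 other genes of the pathway were looked for, in 6 lists by role, and 50 were in the table. The lists were drawn up with earlier results of these data known. Between the lines in vehicle, 10 of the 50 (20%) were called, 7 higher and 3 lower in MKα3+ cells, close to the 18.5% of all genes. In LN332 the count was 14 (28.0%), 9 higher and 5 lower, beside 20.6% of all genes. The median log2 fold change of the 50 was 0.05 in vehicle and 0.03 in LN332. With LN332, 0 of the 50 were called in either line by limma-voom, edgeR or DESeq2, and 5 in MKα3+ and 10 in MKα3− cells had an unadjusted limma-voom p under 0.05 (10.0% and 20% of the list, beside 9.59% and 14.0% of all genes). With the replicate block 1 gene was called in MKα3+ cells, the adaptor gene *Sh2d3c*, at a log2 fold change of -0.56 (limma-voom adjusted p = 0.0153).

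Among 10 FAK partners and adhesion scaffolds, 2 were called in either treatment, 20% of the list beside 18.5% and 20.6% of all genes. *Arhgef7* encodes β-PIX, the exchange factor that GIT proteins link to paxillin at adhesions. It was 2.14-fold higher in MKα3+ cells in vehicle, at 168 ± 10.2 against 78.7 ± 1.90 CPM (SD, n = 4, limma-voom adjusted p = 5.34e-09), and 2.08-fold higher in LN332 (adjusted p = 8.34e-09). *Trip6*, a zyxin family adaptor of adhesions, was 2.60-fold lower in MKα3+ cells in vehicle, at 33.5 ± 3.16 against 88.2 ± 18.7 CPM (SD, n = 4, limma-voom adjusted p = 3.87e-06), and 2.44-fold lower in LN332 (adjusted p = 9.02e-06).

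Among 10 regulators of the Src family and of Cas phosphorylation, 2 were called in vehicle and 3 in LN332. *Pag1* encodes the membrane adaptor that brings the inhibitory kinase CSK to Src family kinases. It was 2.77-fold higher in MKα3+ cells in vehicle (3.27 ± 0.30 against 1.29 ± 0.70 CPM, SD, n = 4, limma-voom adjusted p = 0.00164) and 4.10-fold higher in LN332 (4.63 ± 0.50 against 1.18 ± 0.57 CPM, adjusted p = 8.62e-05), on 17 to 130 counts per library. *Cbl*, a ubiquitin ligase that acts on activated tyrosine kinases, was called in LN332, at 22.7 ± 6.89 against 13.0 ± 4.46 CPM (SD, n = 4), 1.75-fold higher in MKα3+ cells (limma-voom adjusted p = 0.0223), with overlapping values. Its log2 fold change in vehicle was 0.48 (limma-voom adjusted p = 0.146), and the 2 differences between the lines did not differ past the threshold (adjusted p = 0.9999). The LN332 call was lost when any of 5 libraries of the groups compared was left out (replicates 1 and 2 of MKα3− and 2, 3 and 4 of MKα3+ cells), with limma-voom adjusted p up to 0.0858, and in the fit of those groups alone (adjusted p = 0.0629). *Csk* itself did not pass between the lines in vehicle (log2 fold change 0.14, limma-voom adjusted p = 0.359).

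Of the 3 Src family kinases of the lists in the table other than *Src*, 1 was called in either treatment, *Fyn*. That is 33.3% of them, beside 18.5% and 20.6% of all genes. In LN332 *Fyn* was 1.66-fold higher in MKα3+ cells, at 25.5 ± 3.62 against 15.5 ± 2.60 CPM (SD, n = 4, limma-voom adjusted p = 0.00195). The *Fyn* values of the 2 lines did not overlap in vehicle or in LN332, and the share over all genes was not computed. The immune marker *Itgam* was at 0.319 to 3.73 CPM in MKα3− and at 5.02 to 25.5 CPM in MKα3+ vehicle libraries, and *Ptprc* at 0.425 to 0.667 and at 0.561 to 3.81 CPM. All 3 immune markers in the table summed to 23.1 to 45.6 CPM in MKα3− vehicle, 12.9 to 37.2 in MKα3− LN332, 28.8 to 60.0 in MKα3+ vehicle and 18.8 to 53.0 in MKα3+ LN332 libraries, and *Cd3e* is not listed in the table. Their part in the *Fyn* difference was not tested.

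Among 8 adaptors of Cas or FAK, 2 were called in vehicle and 3 in LN332. *Sh2d3c* encodes SHEP1, which binds the C-terminal domain of Cas proteins. It was 2.09-fold lower in MKα3+ cells in vehicle, at 10.1 ± 2.56 against 22.0 ± 9.38 CPM (SD, n = 4, limma-voom adjusted p = 0.0195), and 2.48-fold lower in LN332 (adjusted p = 0.0116). The vehicle call was lost without replicate 1 of MKα3− vehicle (limma-voom adjusted p = 0.0596) or replicate 4 of MKα3+ vehicle (adjusted p = 0.0689), and 174 exonic bases overlap *6330409D20Rik* on the opposite strand. Of 14 Crk effectors to Rac and Rap, 1 was called in vehicle, *Dock4*, and 3 in LN332, all higher in MKα3+ cells. These are 7.14% and 21.4% of that list, beside the same shares of all genes.

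**Figure D5:**
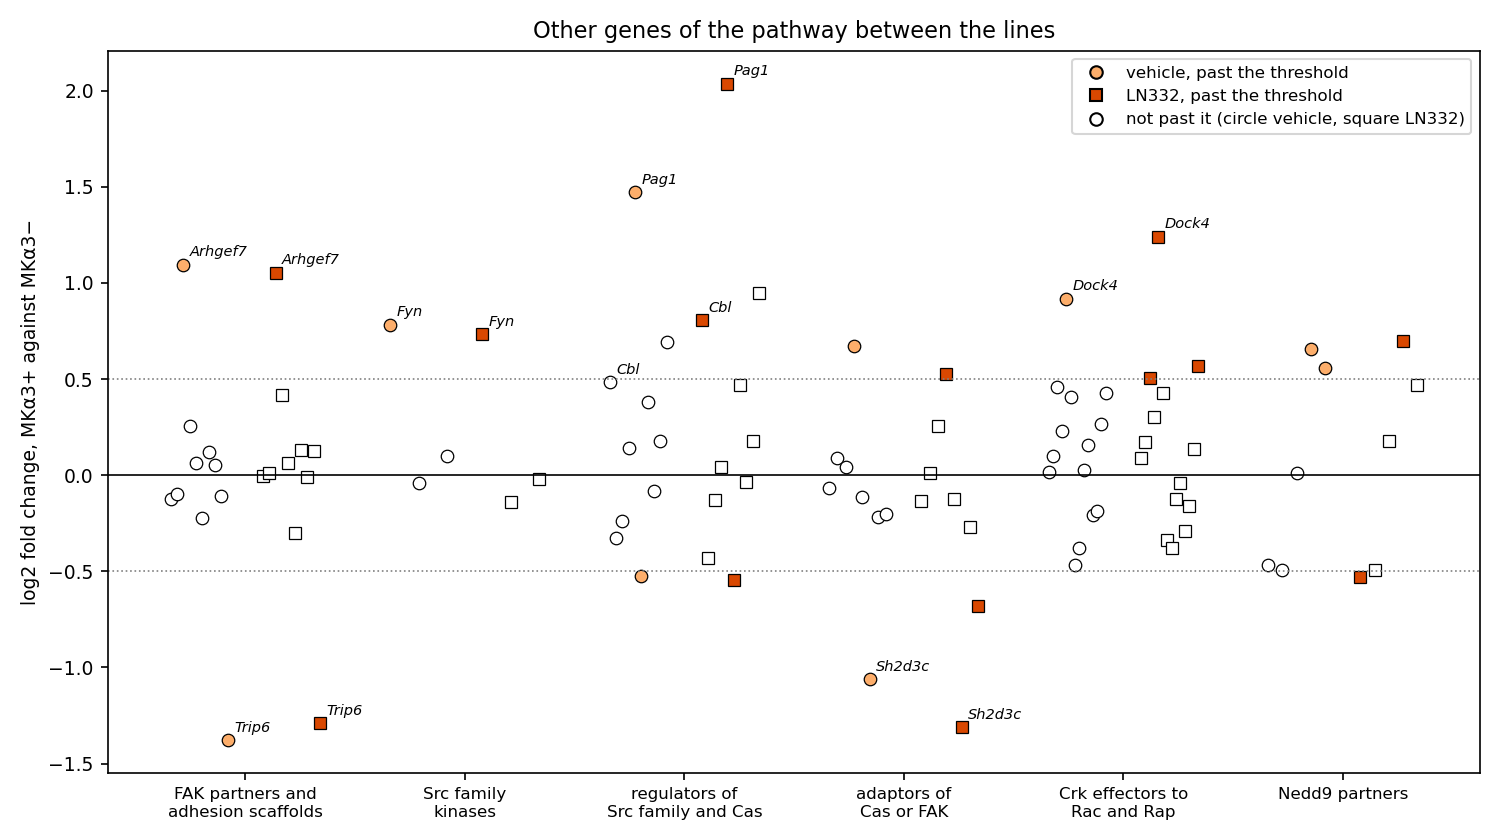
Log2 fold change between MKα3+ and MKα3− cells (y axis) of the 50 other pathway genes, by list, in vehicle (circles) and in LN332 (squares); filled symbols passed the adjusted p and the minimum of 0.5 (dotted lines), open symbols did not. The named genes lie between -1.38 (*Trip6*) and 2.04 (*Pag1*), and most genes of each list lie between the dotted lines.

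By the likeness of log2 CPM over the 16 libraries, the 5 genes closest to *Nedd9* among 11801 were *Mical2*, *Noct*, *Chst2*, *Plekha2* and *Mal2*, with Pearson correlations of 0.988, 0.982, 0.982, 0.978 and 0.977. These values rest on the split between the lines, which all libraries of a line share. Within the 8 MKα3+ libraries the correlations were 0.885, 0.954, 0.838, 0.716 and 0.789, and within the 8 MKα3− libraries 0.910, 0.900, 0.811, 0.841 and 0.769. The 5 genes were picked on these same libraries, so the values within a line are a description and no independent support. Each set of 8 also mixes vehicle and LN332 libraries, and *Nedd9* was chosen partly on its LN332 response. *Mical2* encodes an oxidoreductase that acts on actin. Its mean level was 16.9 and 26.6 CPM in MKα3− vehicle and LN332 libraries and 129 and 206 CPM in those of MKα3+ cells. *Noct*, which encodes the circadian phosphatase nocturnin, stood at 14.6, 18.0, 26.3 and 36.4 CPM in the same order.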

How the data were processed

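RNA-seq of 16 libraries was analysed from the table of counts. Per the labels and methods, poly(A) RNA was sequenced, Rsubread's align placed the reads on mm10, and featureCounts with its built-in Entrez annotation gave the counts per gene. The authors deposited raw counts without normalization. Strand setting: not given in the sources used here, so genes overlapping on opposite strands are uncertain. Every gene had over 0.5 CPM, scaled by library size alone, in at least 6 libraries, so the study's filter (3 libraries) took away 0 genes.

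Total counts ranged from 21735708 to 29338370 (median 27036993). The methods name in vitro data points experimental replicates, and neither they nor the labels say that these are separate cultures, so p-values measure the spread between these samples, which may be technical. Any 2 replicates differed by more than sampling noise (chi-square of 5.43 or more per degree of freedom).

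TMM factors came from edgeR 4.0.16, and limma-voom (limma 3.58.1, R 4.3.3) with empirical Bayes moderation was run as a single fit of all 16 libraries with a coefficient per group. Calls needed an adjusted p under 0.05 over all genes and an absolute log2 fold change over 0.5. Levels per kb used merged exons of the GENCODE annotation on GRCm38.p6. The members and lists were chosen with earlier results of these data known. The rule for named genes was all members, up to 6 called pathway genes per contrast with the largest log2 fold change, and the 5 genes most correlated with *Nedd9* at a mean log2 CPM of at least 1 (prior count 2). *Csk*, *Lyn*, *Yes1*, *Dock3*, *Dock5*, *Itch*, *Smad3* and *Aurka* were named outside it, after their values were seen. *Cass4* was named as a Cas family gene absent from the table. A gene of the lists is not reported here and is left out of their counts. Counts were tested on simulated data first.

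Same-numbered libraries occur once per group. Their deviations from the group means correlated at 0.158 to 0.350 for the lines in vehicle and 0.244 to 0.659 for LN332 in MKα3+ cells, all over 0.1, and in these comparisons the replicate block was set beside the result where it changed a call. The correlations reached down to -0.0566 for the lines in LN332 and 0.0630 for LN332 in MKα3− cells. Other settings tried were DESeq2 1.42.0, the edgeR quasi-likelihood test, and DESeq2 size factors or library size alone as the scaling. At least 10 counts in every library, quality weights, the block and a fit of the compared groups alone were also tried. So were other minimum fold changes, the longest transcript in place of merged exons, and each library left out. The setting with no filter was the same as the main fit, because the study's filter took away 0 genes.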

Additional observations from a re-analysis of the deposited data

How the results depend on the processing

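*Dock1* was called in both comparisons of the lines under every alternative except a minimum log2 fold change of 1, where 0 of the 7 members were called in vehicle and 0 in LN332. With no minimum fold change, 2 members were called in vehicle. Of the pathway list, 19 and 23 genes were called in vehicle and in LN332 with no minimum and 4 and 5 with a minimum of 1, and leaving out a library gave 9 to 12 and 10 to 16. With the replicate block, 1 pathway gene was called for LN332 in MKα3+ cells, and the block changed no other count of members or of that list. In the 2 comparisons where 1 of the 4 same-numbered pairs correlated under 0.1, the block moved the count over all genes from 2987 to 3393 for the lines in LN332 and from 44 to 259 for LN332 in MKα3− cells, and the *Ptk2* limma-voom adjusted p between the lines in LN332 to 0.0359. By the longest transcript, the *Nedd9* share in MKα3+ vehicle libraries was 10.9%. The counts of genes changed by LN332, 27 in MKα3+ and 44 in MKα3− cells, were 4 and 47 by edgeR, 123 and 165 by DESeq2, 3 and 74 by library size alone, 218 and 259 with the replicate block, 454 and 123 with quality weights, 106 and 1 with only the groups compared, 30 and 57 with no minimum fold change, and 5 and 6 with a minimum of 1, and leaving out a library gave 0 to 47 and 1 to 150. The difference of the responses was called for 0 genes by limma-voom, edgeR and DESeq2, with 164, 168 and 207 genes at an unadjusted p under 0.05. The cause of these shifts was not tested.

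Differences near 0 changed sign. The *Src* log2 fold change between the lines in vehicle was -0.0080 by edgeR, -0.017 by DESeq2, -0.0055 with its size factors, -0.0097 by library size alone and -0.0014 with only the groups compared. By library size alone, which moved the median of all genes by LN332 to -0.085 in MKα3+ and -0.082 in MKα3− cells, the LN332 response was -0.026 for *Ptk2* and -0.059 for *Crk* in MKα3+ cells and -0.013 for *Bcar1* and -0.054 for *Ptk2* in MKα3− cells. Over the libraries left out, the line difference ran from -0.068 to 0.10 (*Src*) and -0.023 to 0.079 (*Crkl*) in vehicle, and from -0.029 to 0.11 (*Ptk2b*), -0.028 to 0.12 (*Src*) and -0.10 to 0.18 (*Crkl*) in LN332. The LN332 response ran from -0.036 to 0.052 (*Crk*) and -0.15 to 0.020 (*Crkl*) in MKα3+ cells, and from -0.0077 to 0.12 (*Bcar1*), -0.032 to 0.090 (*Ptk2*) and -0.23 to 0.058 (*Crkl*) in MKα3− cells. The difference of the responses ran from -0.0026 to 0.12 (*Bcar1*), -0.041 to 0.087 (*Ptk2*), -0.039 to 0.13 (*Src*), -0.14 to 0.14 (*Crkl*) and -0.12 to 0.23 (*Dock1*). None of these was called. At this depth the SE of a member's log2 fold change between 2 groups was 0.09 to 0.18, and changes under the minimum of 0.5 were not called whatever their p.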

Other observations

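Of 5 *Nedd9* partners in mitosis, cilia and TGF-β signaling, 2 were called between the lines in vehicle, both higher in MKα3+ cells, and 2 in LN332, 1 higher and 1 lower. These are 40% of the list in either treatment, beside 18.5% and 20.6% of all genes, and the list was not tested. *Itch*, a ubiquitin ligase that acts on NEDD9, was 1.57-fold higher in MKα3+ cells in vehicle, at a mean of 84.7 against 53.9 CPM (n = 4, limma-voom adjusted p = 1.53e-04), and 1.62-fold higher in LN332 (adjusted p = 8.04e-05). *Smad3*, a transcription factor of TGF-β signaling, was 1.47-fold higher in vehicle (limma-voom adjusted p = 1.56e-04), and its log2 fold change in LN332, 0.47 (adjusted p = 7.31e-04), was under the minimum. *Aurka*, the mitotic kinase that NEDD9 can activate, had a log2 fold change of -0.47 in vehicle, under the minimum, and of -0.53 in LN332 (limma-voom adjusted p = 2.74e-04). Whether these differences changed with LN332 was tested by the difference of the responses, which gave a limma-voom adjusted p of 0.9999 for each of the 3 genes.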
